A study of Arabidopsis thaliana with 2 samples.

Results

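SOG1-Myc peaks with at most 1 named gene make up 234 of the 778 peaks called from a chromatin immunoprecipitation sequencing (ChIP-seq) library of Arabidopsis thaliana, or 30.1% (exact 95% interval 26.9 to 33.4). They were chosen by the gene column of the authors' peak list alone, after the lines of the list had been collapsed to unique chromosome, start and end. No measured value entered the choice. A single gene was named for 199 of them and no gene for 35. The other 544 peaks each named 2 or more genes.

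The ChIP library came from whole 2-week-old Col-0 plants that carried ProSOG:SOG1-Myc, a Myc-tagged SOG1 that the name places under the SOG1 promoter, and that had been kept for 2 h in liquid medium with 15 µM zeocin. The counterpart library was made with the anti-Myc antibody from untagged Col-0 plants that carry the label mock, although their protocol text mentions zeocin; here they are called by the label. There is 1 library per group, and values of the untagged library were not analysed here. Genotype and treatment therefore cannot be told apart, and no peak has a replicate error.

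SOG1 is a plant NAC transcription factor that is phosphorylated by the kinase ATM after DNA breaks and then switches on genes of DNA repair and cell cycle arrest. Zeocin, a bleomycin-type drug, cuts DNA and so activates this pathway. In the compact Arabidopsis genome neighbouring genes often share an intergenic region, so that a bound site can lie close to more than 1 gene. A peak for which the authors name a single gene leaves no choice among named genes. Other genes can still lie close by: the single-gene peaks of AT5G11090 and SYTD, for example, were 1096 bp apart. A named gene is also an assignment by position and not a measured target.

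Peaks with at most 1 gene had nearly the median fold enrichment of the rest, with a somewhat lower median width. The median fold enrichment, the authors' ratio of signal in the peak to a background they do not specify, was 4.43 for the 234 peaks (95% interval of the median over peaks 4.17 to 4.46) and 4.29 for the other 544 (4.15 to 4.44). The means lay the other way, at 4.72 ± 1.75 for the 234 and 4.85 ± 2.20 for the 544 (SD over peaks). The difference of medians also turned to -0.088 among the 389 peaks with the highest Decibel Score and to -0.12 among the 389 with the highest fold enrichment. Enrichment of 5-fold or more was reached by 65 of the 234 peaks (27.8%, exact interval 22.1 to 34.0) and by 151 of the 544 (27.8%, 24.0 to 31.7), against 27.8% of all peaks in the list. The share at this strength is thus that of the list as a whole. At 10-fold or more there were 4 of the 234 (1.71%, 0.468 to 4.32) and 19 of the 544 (3.49%, 2.12 to 5.40), against 2.96% of all peaks. All 4 named a single gene.

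The median width was 808 bp (782 to 853) for the peaks with at most 1 gene and 853 bp (826 to 881) for the others. The authors' Reads column, an unscaled count per peak, had a median of 73 (69 to 78) for the peaks with at most 1 gene and 78 (73 to 82) for the others. Both pairs of intervals overlap. Per kb of peak, the median was 87.9 Reads (86.1 to 89.9) for the 234 peaks and 88.9 (87.5 to 90.1) for the 544. The 234 peaks held 21514 of the 78249 Reads in peaks, 27.5% of the Reads on 30.1% of the peaks. These intervals describe the spread among peaks of 1 library, so no test of the differences is given. The authors' false discovery rate was 0.119 to 0.25 over the 234 peaks and 0.116 to 1 over the 544. Its median was 0.147 in both classes, and no peak of either was below 0.1. The 0.25 belonged to the strongest of the 234 by fold enrichment, a peak of BRCA1. The peaks of RPA70C and PUM8, next in fold enrichment, had 0.143 and 0.211. The title of the list carries a 5 kb tag, and no source used here says how genes were assigned or whether width entered.

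Within the 234 peaks the peaks with no gene had a higher median fold enrichment than those with 1 gene. It was 4.81 (4.39 to 5.06) for the 35 peaks without a gene and 4.35 (4.07 to 4.44) for the 199 with 1 gene, with intervals that overlap narrowly. The quartiles were 4.25 and 5.30 without a gene, and 3.74 and 5.09 with 1 gene. Below 4-fold lay 7 of the 35 and 77 of the 199. Widths and Reads did not follow: the medians were 793 bp and 73 Reads without a gene, and 809 bp and 74 Reads with 1 gene.

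**Figure D1:**
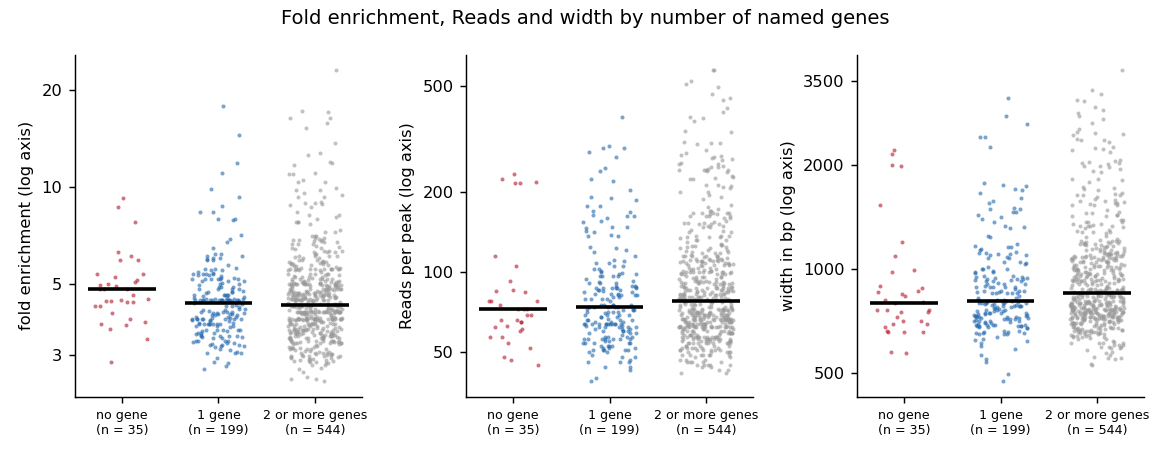
Fold enrichment, Reads and width in bp of every peak (points; log axes) for peaks with no gene, 1 gene, and 2 or more genes, with the median of each class as a bar. The medians of fold enrichment are 4.81, 4.35 and 4.29, and the classes overlap over most of their range on every axis.

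Width and Reads rose together across the 234 peaks (Pearson's r 0.925, Spearman's rho 0.954), as they did across the 544 (0.906 and 0.953). Fold enrichment and width were less closely related, with r 0.047 and rho -0.037 among the 234 and r 0.303 and rho 0.122 among the 544. All points share 1 library, and these values describe the list.

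BRCA1 and RPA70C led the peaks with a single gene. BRCA1 (AT4G21070), a ubiquitin ligase that promotes repair by homologous recombination, had a peak of 1457 bp with 298 Reads and 17.8-fold enrichment at chromosome 4, 11247595 to 11249051 (TAIR10). Its summit, the position of highest signal, lay at 29.4% of the width from the peak start, well to the low-coordinate side. RPA70C (AT5G45400), a large subunit of the complex that coats single-stranded DNA during repair and replication, had 282 Reads and 14.5-fold enrichment over 1416 bp at chromosome 5, 18397814 to 18399229. Its summit was close to the centre, at 54.8% of the width. No other peak with a single gene exceeded 12-fold.

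PUM8 (AT1G22240, APUM8 in the list), a member of the Pumilio family of RNA-binding proteins, followed at 11.8-fold with 219 Reads at chromosome 1, 7850940 to 7851911. AT1G51130, which neither the list nor the gene table gives a name, had 11.1-fold enrichment and 142 Reads at chromosome 1, 18941205 to 18942127. These 4 genes are the ones above 10-fold. AT5G42210 came next with 9.80-fold and 148 Reads at chromosome 5, 16865921 to 16866951.

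HDG4 (AT4G17710), a homeodomain transcription factor, had a 9.30-fold peak with 163 Reads at chromosome 4, 9858798 to 9859908. WRKY48 (AT5G49520), a WRKY factor known as a regulator of defence, had an 8.34-fold peak with 189 Reads at chromosome 5, 20088158 to 20089707. DFL1 (AT5G54510, GH3.6 in the list), an enzyme that joins auxin to amino acids, had 7.95-fold enrichment on 89 Reads at chromosome 5, 22134414 to 22135211. The cytochrome P450 gene CYP96A11 (AT4G39500) had 7.95-fold enrichment as well, on 105 Reads at chromosome 4, 18367952 to 18368838.

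AT3G28220 (8.69-fold, 119 Reads), AT5G38490 (8.32-fold, 168 Reads) and AT4G37530 (7.90-fold, 246 Reads) completed the 12 strongest. AT4G37530 had nearly the fold enrichment of DFL1 on far more Reads, over 1778 bp against 798 bp. Just under these stood PUB9 (AT3G07360), a U-box ubiquitin ligase, with 7.07-fold enrichment and 155 Reads.

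**Figure D2:**
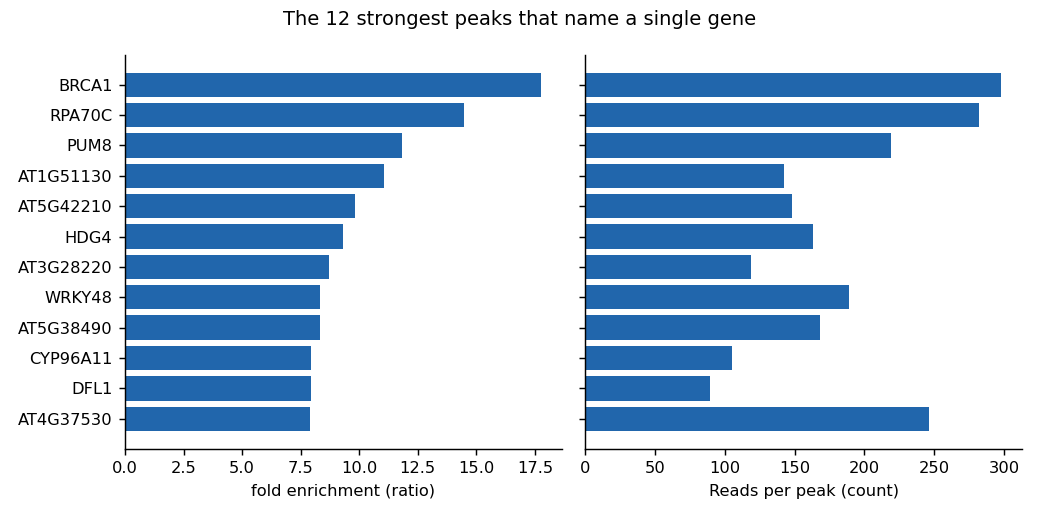
Fold enrichment (left, ratio) and Reads per peak (right, count) of the 12 strongest peaks that name a single gene, 1 bar per peak. BRCA1 at 17.8-fold and RPA70C at 14.5-fold stand above the rest, and the Reads do not follow the order of fold enrichment below PUM8.

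The strongest peaks left out for naming 2 genes were those of ANAC085 (AT5G14490), a NAC factor related to SOG1, at 17.1-fold with 226 Reads, and of RAD17 (AT5G66130), a loader of the checkpoint clamp, at 13.7-fold with 241 Reads. By rank, 2 of the 10 strongest peaks of the list, 13 of the 50 strongest and 25 of the 102 at rank 100 or tied with it named at most 1 gene. The classes are thus mixed from the top of the list down.

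BRCA1 and RPA70C were also the only listed genes of the DNA damage response to be named alone. Of 45 such genes, chosen with earlier results of these data known, 2 were named alone, 23 were named with other genes and 20 were not named. That is 2 of the 25 with a peak, or 8% (exact interval 0.984 to 26.0), an interval that includes the 12.4% of all 1513 named genes. The 2 were BRCA1, among 21 repair genes, and RPA70C, among 9 genes of replication and nucleotide supply. None of the 5 checkpoint genes, the 7 cell cycle genes or the 3 damage-linked NAC genes on the list was named alone. Of these, 2, 6 and 3 in turn had a peak, always with other genes. Such counts are too small to set against the 12.4%. SMR7 (AT3G27630), a SIAMESE-type kinase inhibitor, for example, had an 11.9-fold peak that named other genes too. The list does not hold every cell cycle gene. FZR2 (AT4G22910, CCS52A1 among its synonyms) was not on it and was named alone, at 3.21-fold.

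Some further genes of genome maintenance that the gene table names, picked out after their values had been seen, had single-gene peaks of moderate strength. Genes without a name there, among them AT1G51130 with its 11.1-fold peak, were not sorted by function. RecQl3 (AT4G35740), a RecQ helicase, had 6.01-fold enrichment and 103 Reads. MEI1 (AT1G77320), a BRCT-domain protein needed for meiosis, had 4.44-fold on 56 Reads. RFC1 (AT5G22010), the large subunit of the clamp loader of replication, had 4.43-fold on 105 Reads. POLD4 (AT1G09815), a small subunit of DNA polymerase delta, had 4.03-fold on 187 Reads over 1569 bp. All but RecQl3 lay between the quartiles of the single-gene peaks.

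The 199 peaks named 187 different genes, because 11 genes were the only gene at 2 or more peaks. These 11 genes account for 23 peaks, with 34 to 2663 bp between neighbouring peaks of a gene. BRCA1 had the most unequal pair: its second peak, at chromosome 4, 11251202 to 11251978, lay 2150 bp away and had 60 Reads and 4.07-fold enrichment, so that the stronger peak exceeded it 4.36 times. Its summit was at 18.4% of the width, so both BRCA1 peaks had their highest signal towards lower coordinates. AT1G51130 likewise had a second, weaker peak of 3.88-fold with 64 Reads, only 86 bp from the first, a ratio of 2.85.

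WRKY48 had 2 strong peaks 149 bp apart, at 8.34-fold with 189 Reads and at 6.75-fold with 138 Reads. Their summits faced each other, at 37.4% of the width of the right-hand peak and 61.4% of the left-hand one. In the other repeated genes the peaks were nearer to the list's median. RAP2.4 (AT1G78080), a factor of the ERF family, was the only gene at 3 peaks, of 3.67-fold with 97 Reads, 4.52-fold with 57 Reads and 2.84-fold with 293 Reads. The one with the most Reads was 2407 bp wide and had the lowest enrichment.

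EBF2 (AT5G25350), an F-box protein that targets the ethylene factor EIN3, showed the same opposition. Its 2.94-fold peak held 224 Reads over 2253 bp, and its 5.36-fold peak held 74 Reads over 724 bp. RVE2 (AT5G37260), a MYB-like factor related to clock proteins, had peaks of 4.44-fold and 4.25-fold, 1694 bp apart. ERD5 (AT3G30775, ATPOX in the list), the proline dehydrogenase gene, had 4.07-fold and 3.88-fold, 1384 bp apart. The pairs of BRG1 (3.33-fold and 3.58-fold) and AR781 (3.33-fold and 3.70-fold) were weak, those of SYTD, a synaptotagmin (3.94-fold and 5.20-fold), and AT5G48020 (5.36-fold and 4.67-fold) somewhat stronger.

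**Figure D3:**
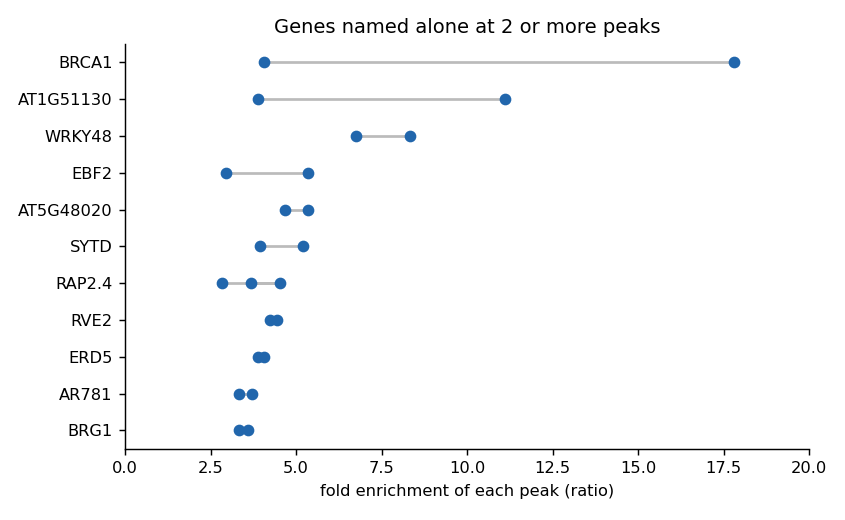
Fold enrichment (ratio) of each peak for the 11 genes that are the only gene named at 2 or more peaks; a line joins the peaks of a gene. BRCA1 (17.8-fold and 4.07-fold) and AT1G51130 (11.1-fold and 3.88-fold) have 1 strong and 1 weak peak, while both WRKY48 peaks exceed 6-fold.

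A single-gene peak did not always mean that the gene had no shared peak. Of the 187 genes, 12 were also named at a peak with several genes. Among them, as examples chosen after their values were seen, were TRFL10, a telomere repeat binding factor-like protein, whose single-gene peak of 5.10-fold lay 210 bp from a peak that named TRFL10 and ATHB51, and RGA1, a DELLA repressor of gibberellin responses, with 3.60-fold and a shared peak 2075 bp away. Of the 12 genes, AT3G28220 had the strongest single-gene peak, at 8.69-fold. That peak lay 616 bp from a 4.07-fold peak that named AT3G28220 and PMZ. The Mediator subunit gene PFT1 had a single-gene peak of 3.77-fold 1217 bp from 1 shared with AT1G25550. A 2417 bp peak of the flowering repressor gene TEM1 (3.45-fold, 239 Reads) followed 2834 bp further on.

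Transcription factor families were present in small numbers among the 187 genes. Grouped by words in their symbols and synonyms, 4 were WRKY factors (2.14%, exact interval 0.586 to 5.39), against 12 of the 1296 matched genes named only at shared peaks (0.926%, 0.479 to 1.61) and 0.262% of 27444 protein-coding genes. The 2 intervals overlap. Besides WRKY48 these were WRKY47 (4.97-fold), WRKY28 (4.80-fold) and WRKY6 (4.54-fold). All 4 thus lay above the list's median. A further 3 were ERF and DREB factors by name (1.60%), against 5 of the 1296 (0.386%) and 0.204% of coding genes: ERF8 at 5.36-fold, ERF15 at 3.77-fold and ERF-1 at 2.85-fold. The word rule missed RAP2.4, and RAP2.4 need not be the only miss. A member whose symbol and synonyms lack the words goes uncounted, here and in the families below.

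NAC factors, the family of SOG1 itself, numbered 3 among the 187 genes (1.60%) and 7 among the 1296 (0.540%), against 0.364% of coding genes. They were NAC010 (AT1G28470) at 5.92-fold, NAC053 (AT3G10500) at 5.03-fold with 203 Reads, and NAC083 (AT5G13180) at 4.08-fold. Zinc finger proteins by name also numbered 3, with ZFN2 at 5.40-fold, OZF2 at 4.46-fold and OXS2 at 3.25-fold, against 4 of the 1296 (0.309%) and 0.219% of coding genes. The MYB family had MYB70 at 5.29-fold as its single member (0.535%), against 5 of the 1296 (0.386%) and 0.536% of coding genes. The bZIP family had AT1G06070 (bZIP69) at 4.43-fold (0.535%), against 8 of the 1296 (0.617%) and 0.208% of coding genes. Intervals of these small counts overlap in every family between the 187 and the 1296.

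Of 4 genes grouped by words for the ubiquitin system (2.14%, against 12 of the 1296 or 0.926%, and 0.689% of coding genes), PUB9 (7.07-fold) and PUB26 (4.71-fold) are U-box ligases, whereas UBP21 is a protease and UBQ10 encodes ubiquitin. The words missed BRCA1, itself a ubiquitin ligase, so the shares are not those of ubiquitin ligases. Genes found by kinase words were 4 of the 187 (2.14%), beside 25 of the 1296 (1.93%) and 2.12% of coding genes. Kinases whose names lack such words are not counted in any of these shares. The 4 were led by AT5G10020 (SIRK1, 4.44-fold, 177 Reads) and the receptor-like kinase RLK7 (AT1G09970, 4.15-fold). Among 4 genes found by words for cytochrome P450 and glycosyltransferases (2.14%, against 21 of the 1296 or 1.62%, and 1.36% of coding genes), CYP96A11 was followed by CYP78A9 at 3.89-fold. These words missed the cytochrome P450 gene ROT3 (CYP90C1 among its synonyms), named alone at 3.82-fold. Transporters by name were CLC-B, a chloride channel family member, at 5.36-fold and NRT1.12 (AT3G16180) at 3.04-fold (1.07%, against 14 of the 1296 or 1.08%, and 1.58% of coding genes). The phosphatase words found TPS11 at 5.18-fold (0.535%, against 5 of the 1296 or 0.386%, and 0.525% of coding genes).

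No calcium or calmodulin gene by name was among the 187, against 9 of the 1296, and no heat shock or chaperone gene, against 6. A count of 0 of 187 allows a share of up to 1.95% at the upper exact limit, above both of the shares that these counts make of the 1296, so neither gap is resolved. Disease resistance genes by name were 0 of 187 and 0 of 1296. The 2 classes share the same list, for 89 of the 187 genes the table's symbol is the locus itself, although the synonyms of some hold a name, and the counts describe named genes only.

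Most single genes were protein-coding. The gene table classed 181 of the 187 as protein-coding, 4 as pseudogenes, 1 as a transcribed pseudogene and 1 as a tRNA gene. The pseudogene AT3G30790 had the strongest peak of these, at 5.55-fold with 55 Reads at chromosome 3, 12473346 to 12473965. AT3G29578, another pseudogene, had 4.62-fold with 71 Reads, and the alanine tRNA gene AT5G01365 had 4.44-fold with 51 Reads. The remaining 3 ran from 3.70-fold to 4.35-fold.

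The 35 peaks without a gene were not the weak end of the list. The strongest lay at chromosome 3, 1059834 to 1061359, with 9.25-fold enrichment and 218 Reads over 1526 bp, and the next peak with a gene was 24769 bp away. A short peak at chromosome 1, 29760744 to 29761398, had 8.67-fold enrichment on 73 Reads and stood 134958 bp from any other peak. The third, at chromosome 3, 5124429 to 5126408, had 7.75-fold enrichment and 223 Reads and lay 1323 bp from a peak that named ERF4, a repressor of the ERF family, and AT3G15200. So strong peaks without a gene were found both beside named peaks and far from them.

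At chromosome 3, a pair of peaks without a gene lay 588 bp apart, at 4119211 to 4119961 (6.28-fold, 73 Reads) and 4120550 to 4121745 (4.39-fold, 93 Reads). The nearest named genes, AT3G12930 and AT3G12920, belonged to a peak 2346 bp from the second. The next 5 peaks without a gene, the last 2 of them tied at 5.36-fold, had up to 6.10-fold enrichment, 61 to 78 Reads and widths of 676 to 880 bp. One of these, at chromosome 5, 8250700 to 8251499 (5.92-fold, 69 Reads), had as its nearest named peak, 10636 bp away, the one of GMI1, a gene induced by gamma rays, and SSI1.

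Peaks without a gene lay at a median of 25986 bp from the nearest peak that named one, with a range of 1323 to 327386 bp. Of the 35, 8 lay within 5 kb of such a peak, 14 within 10 kb and 7 over 100 kb away. In 5 of the 8 closest cases the peak without a gene had the lower fold enrichment. An example is the 3.71-fold peak 3490 bp from the 5.36-fold peak of ERF8. For 6 of the 35 the nearest peak of any kind also had no gene.

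**Figure D4:**
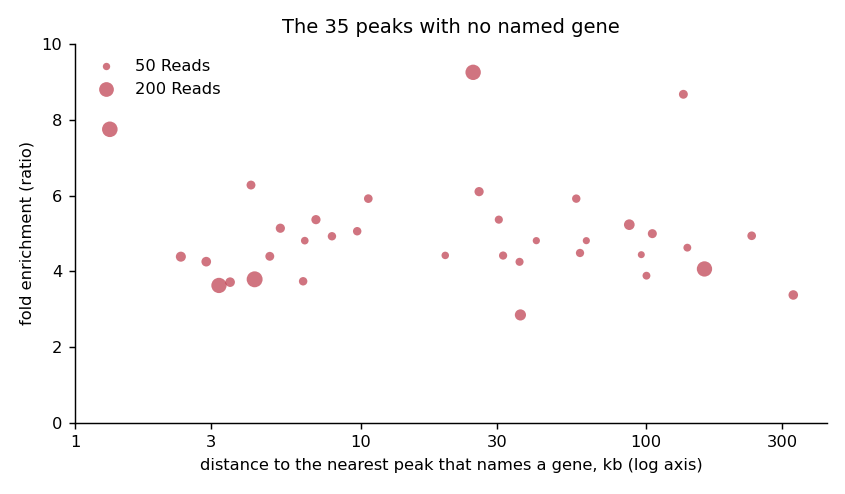
Fold enrichment (ratio) of the 35 peaks with no named gene against the distance in kb to the nearest peak that names a gene (log axis); point area is in proportion to Reads. The peaks above 7-fold lie at 1323, 24769 and 134958 bp, so strength shows no single distance.

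Among the 35 peaks, 5 exceeded both 1500 bp and 200 Reads. Beside the strongest and the third they were the peaks at chromosome 5, 1265479 to 1267478 (4.06-fold, 216 Reads) and 26093832 to 26096047 (3.79-fold, 234 Reads), and at chromosome 3, 21240469 to 21242615 (3.63-fold, 215 Reads). The other 30 were at most 1196 bp wide.

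Peaks with at most 1 gene occurred on all 5 chromosomes. They were 63 of 197 peaks on chromosome 1 (32.0%, exact interval 25.5 to 39.0), 28 of 115 on chromosome 2 (24.3%, 16.8 to 33.2), 36 of 153 on chromosome 3 (23.5%, 17.1 to 31.1), 41 of 118 on chromosome 4 (34.7%, 26.2 to 44.1) and 66 of 195 on chromosome 5 (33.8%, 27.2 to 41.0). All 5 intervals overlap. Peaks without a gene numbered 13 on chromosome 5 and 5 or 6 on each of the others.

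The gene neighbourhood was compared in the gene order of the table, which is not independent of a choice made on gene number. Between the nearest named peaks on either side, counting only stretches of 10000 bp or more, there was a median of 2.50 protein-coding genes per 10 kb (2.41 to 2.57) around 226 of the 234 peaks and 2.66 (2.60 to 2.71) around 532 of the 544. Around 34 of the 35 peaks without a gene it was 2.34 (1.90 to 2.72). The intervals of the 234 and the 544 do not meet, while that of the 35 overlaps both. However, each stretch includes the peak itself. Its own named protein-coding genes are thus counted, unless a flanking peak names them too. The 234 bring at most 1 such gene by their choice, so the gap between the classes is not a separate result on the neighbourhood. Both classes still ranged from 0 upwards.

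Pseudogenes were on average scarcer near the peaks than in the gene table as a whole. They made up a mean of 7.21% of the 20 loci on either side of the 199 single-gene peaks and 5.17% for the 544 others, against 12.8% of all 37899 loci. On this measure, over 20 loci on either side in the gene order, 25% or more were pseudogenes for 13 of the 199 single-gene peaks (6.53%) and 16 of the 544 others (2.94%). The medians of this share were equal, at 2.5%. The highest values among single-gene peaks belonged to the pseudogene AT3G30790 (85%), to both peaks of ERD5 (82.5%) and to NIA2 (82.5%), a nitrate reductase gene (AT1G37130, NR in the list) with 3.53-fold enrichment and 154 Reads at chromosome 1, 14158309 to 14160062. AFP3 (AT3G29575), a protein that binds the abscisic acid factor ABI5, followed with 55% and a 5.34-fold peak. The highest value among the 544 others was 87.5%. The 13 peaks had 3.41-fold to 5.55-fold enrichment, none of them among the 12 strongest.

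Spacing to the next peak was similar in both classes within the spread of the medians. The median distance was 29922 bp (19782 to 40746) for the 234 and 38628 bp (34180 to 46055) for the 544. Another peak lay within 5 kb of 58 of the 234 (24.8%, exact interval 19.4 to 30.8) and of 99 of the 544 (18.2%, 15.0 to 21.7). Within 1 kb the counts were 21 (8.97%, 5.64 to 13.4) and 44 (8.09%, 5.94 to 10.7). The intervals overlap at each distance.

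The summit lay near the middle of most peaks. It fell between 40 and 60% of the width in 143 of the 234 peaks (61.1%, 54.5 to 67.4) and in 317 of the 544 (58.3%, 54.0 to 62.5). The median distance from the centre was 7.24% of the width (5.99 to 8.52) in the 234 peaks and 8.13% (6.86 to 9.06) in the 544. In direction the median position was 49.6% of the width (48.0 to 51.1) in the 234 peaks and 52.1% (50.7 to 53.1) in the 544. The summit was left of the centre in 123 of the 234 (52.6%, 46.0 to 59.1) and in 233 of the 544 (42.8%, 38.6 to 47.1), with intervals that overlap narrowly. Strand was not used, so left means only lower coordinates.

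**Figure D5:**
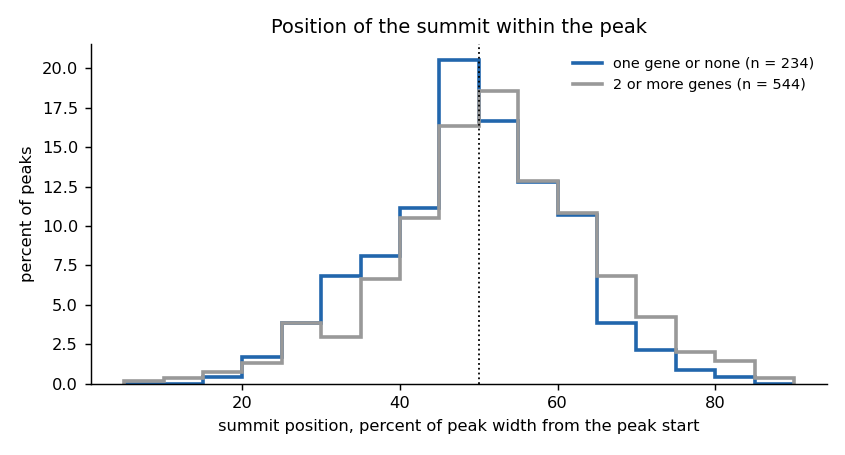
Position of the summit as a percent of peak width from the peak start, as the percent of peaks per bin of 5% of the width, for peaks with at most 1 gene and peaks with 2 or more. Both curves are highest beside the centre (dotted line), with medians of 49.6% and 52.1%.

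The 5 most off-centre summits included those of wide and weak peaks. UBQ10 (AT4G05320), a ubiquitin gene used as a strongly expressed standard, was the extreme member in several ways: its peak was the widest of the 234 (3120 bp), held the most Reads (381), had the lowest fold enrichment (2.71) and had its summit at 81.8% of the width. After the weaker BRCA1 peak came PUB26 at 20.6%, FZR2 (AT4G22910), which activates the APC/C ubiquitin ligase, at 22.9% with 3.21-fold enrichment, and BT2 (AT3G48360) at 23.3% with 3.11-fold. The next widest peaks were those of ABCG1 (AT2G39350; 2770 bp, 3.13-fold) and AT5G11090 (2638 bp, 4.40-fold).

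The narrowest were those of AT1G62480 (472 bp, 40 Reads, 4.62-fold), AT3G49350 (494 bp, 39 Reads, 3.70-fold) and the ERD5 peak with fewer Reads (538 bp, 43 Reads, 4.07-fold). They also had the fewest Reads of the 234. Near the low end of fold enrichment stood DCL1 (AT1G01040), the Dicer-like enzyme of microRNA processing, at 2.77-fold with 74 Reads over 873 bp. At the 5-fold mark, AT2G29970 (5.00-fold, 50 Reads; SMXL7 among its synonyms) and NAC053 were just inside, and NUDX25 (4.99-fold, 62 Reads) just outside.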

How the data were processed

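ChIP-seq peaks of 1 library were analysed. CASAVA 1.8.2 and build TAIR10 come from the submitters' processing notes; the aligner, peak caller, control and thresholds were not stated. Per the file headers, the authors deposited a read count per peak, a fold enrichment (ratio), a Decibel Score (score), an FDR (on the scale of a q-value, not used for selection), a length and a summit position, which the values place within the peak. Total library depth is unknown. The 1645 lines were collapsed to 778 peaks; width was taken as end minus start plus 1, which equals the deposited length for 170 of the 234 peaks with at most 1 gene and exceeds it by 1 bp for 64. A gene table of assembly TAIR10.1 gave names, classes and gene order (187 of 187 genes matched by locus); none of its positions is printed. No sequence of the build was used, so the planned search for the CTT(N)7AAG site was not run. Medians carry order-statistic intervals and shares exact Clopper-Pearson intervals (95%), which cover counting error or spread among peaks only. No test was run, as there is 1 library. The members and lists were chosen with earlier results of these data known; gene density, pseudogene neighbours and fold steps were added after seeing the data. Named genes were the 12 strongest peaks with 1 gene, the 8 strongest without (9 with a tie), extremes of width, Reads and summit offset, genes alone at 2 or more peaks, the strongest peaks with 2 genes, members of the 45-gene list, the top 2 of each of 15 name families, and non-coding genes; other genes named were chosen after their values were seen. Python 3.11.15, pandas 2.3.3 and SciPy 1.17.1 were used. Functions were tested on simulated data.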

Additional observations from a re-analysis of the deposited data

How the results depend on the processing

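Of 62 recomputed values of 8 results, 43 kept their direction and moved by less than a tolerance set from the 95% interval (1.5 times for the count). The tolerance was larger than the difference itself for fold enrichment (0.147, difference 0.137) and Reads per kb (1.88, difference -0.974). The same held for summit offset (1.26, difference -0.892) and spacing (10482 bp, difference -8706 bp). For these 4 results the count cannot show that a difference holds. Counting any gene symbol in place of the longest transcript changed no value. Among the 389 peaks with the highest Decibel Score, 122 named at most 1 gene, and 45.9% of these reached 5-fold. The share over all 389 of these peaks was not computed, so 45.9% cannot be read as a gain of this class. There the median width difference (at most 1 gene minus the rest) was -135.5 bp in place of -45 bp, that of Reads -20 in place of -5, that of Reads per kb -4.50 in place of -0.97, and that of fold enrichment reversed to -0.088 from 0.14. Among the 389 peaks at or above the median fold enrichment, 125 named at most 1 gene, and 52% of these reached 5-fold. These 389 hold all 216 peaks of the whole list at 5-fold or more, so the share rises by construction. Reads there differed by -14 and Reads per kb by -6.34. Distance to the nearest peak differed by -24298 bp in place of -8706 bp, and fold enrichment reversed to -0.12. With means, Reads differed by -12.4, Reads per kb by -3.32, and fold enrichment reversed to -0.13. For peaks without a gene alone, Reads per kb reversed to 1.39, fold enrichment differed by 0.51, and 34.3% reached 5-fold; at a 10-fold mark the share was 1.71%. The smaller or stronger lists change the peaks compared by construction; the cause was otherwise not tested. With protein-coding genes only, 287 peaks qualified. No paired analysis was possible because each group has 1 library. Motif alternatives were not run, for want of sequence. With depth unknown, no detection limit can be given for genes without a peak.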

Other observations

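Several single-gene peaks of ordinary strength fell on hormone, clock and nitrogen genes; they were picked out after their values had been seen, and no enrichment was tested. The auxin receptor gene TIR1 (AT3G62980) had 4.32-fold enrichment with 94 Reads, the auxin-response gene ATAUX2-11 (AT5G43700) 3.90-fold with 74 Reads, and ARF19 (AT1G19220, listed as ARF11), an auxin response factor, 3.18-fold with 82 Reads. GI (AT1G22770), a clock and flowering protein, had 4.06-fold with 75 Reads. BRL3 (AT3G13380), a brassinosteroid receptor, had 4.72-fold with 164 Reads, and ROT3 (AT4G36380), a cytochrome P450 of brassinosteroid metabolism, 3.82-fold with 87 Reads. In nitrogen metabolism, the glutamate dehydrogenase gene GDH2 (AT5G07440) had 3.86-fold with 57 Reads and LBD38 (AT3G49940), a repressor of nitrate-responsive genes, 3.47-fold with 72 Reads. SCE1 (AT3G57870, listed as AHUS5), the SUMO conjugating enzyme, had 3.74-fold with 61 Reads. CAK4 (AT1G66750), a kinase that activates cyclin-dependent kinases, had 3.95-fold with 66 Reads.

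The authors' fold enrichment takes repeated values. A step of 0.185, found in the same values, divides it into whole steps (within 0.001 of a step) for 66 of the 234 peaks with at most 1 gene (28.2%, exact 95% interval 22.5 to 34.4), among them the strongest BRCA1 peak at 96 steps, and for 118 of the 544 others (21.7%, 18.3 to 25.4). Of these others, peaks with exactly 2 genes were near the first share, at 80 of 302 (26.5%, 21.6 to 31.8). Without a gene the count was 13 of 35 (37.1%, 21.5 to 55.1). Among the 234, peaks on the step had a median of 61.5 Reads, 732 bp and 4.62-fold enrichment, and those off it 78.5 Reads, 857.5 bp and 4.20-fold. The cause was not tested.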
